A study of Mus musculus with 4 samples.

Results

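The question was for which genes the mRNA difference between 2 genotypes of regulatory T cells (Treg cells) was larger, smaller or opposite in 1 cell state compared with another. For each gene the log2 ratio of the knockout-labelled library over WT in rTreg was subtracted from the same ratio in aTreg. This difference of differences is called the state dependence below. A value of 1 means that the ratio was 2-fold higher in aTreg than in rTreg, and a value of -1 that it was 2-fold lower. The same number is the aTreg over rTreg ratio in the knockout-labelled pair minus that ratio in WT. It was computed for the 9680 of 19044 genes whose average level across all 4 libraries reached 5 CPM (CPM is the read count scaled to a common library total).

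Treg cells were taken, with no treatment, from the spleen and the peripheral lymph nodes. The control mice, labelled WT, carried Foxp3-YFP-Cre, a Cre recombinase joined to yellow fluorescent protein and driven by the Foxp3 gene, which is active in Treg cells. The other mice carried Foxp3-YFP-Cre and Ripk1fl/fl, a Ripk1 gene with loxP sites that Cre recombines, so Cre was shared by all 4 libraries. Each genotype gave 1 library of rTreg and 1 of aTreg, letters that the labels do not spell out and that stand in this field for resting and activated. How old, how many and of which sex the mice were, how the states were gated and whether libraries shared mice is not stated in the labels. With 1 library per combination no residual degrees of freedom remain, so the state dependence has no replicate check and no p-value is given. Brackets hold 95% counting intervals, which cover the sampling of reads alone.

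RIPK1 is a kinase and scaffold that receives signals from death receptors. It can pass them to survival through NF-kappaB, to apoptosis through FADD and caspase-8, or to necroptosis through RIPK3 and MLKL. Treg cells restrain other immune cells, and on activation they take up T cell receptor signals, divide and express effector genes such as Il10.

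The libraries held 17588754 to 20868319 counts each, and a count of 0 allowed a level of up to 0.144 to 0.172 CPM. Levels written as 4 values are CPM, first of the WT libraries (rTreg, then aTreg) and then of the KO-labelled libraries (rTreg, then aTreg). Ripk1 was at 84.2, 78.0, 85.3 and 81.4 CPM, with a state dependence of 0.04 [-0.10 to 0.19]. These whole-gene counts showed no sign of a deletion, so the libraries are called KO-labelled wherever a direction is drawn. Annotated exons of Serpinb6a on the opposite strand overlap Ripk1. Foxp3, which defines Treg cells, was at 693, 698, 623 and 662 CPM. Xist, the X-inactivation RNA of female cells, had 6271 and 6955 counts in the WT libraries against 5 and 4 in the KO-labelled ones, while Y-linked Ddx3y had at least 2007 counts in every library. The sex mix therefore differed between genotypes, and its part in the results was not tested. Ddx3y itself had a state dependence of 0.15.

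Most genes had a similar genotype ratio in both states. The state dependence had a median of 0.0006 and an SD of 0.27 over genes, and 93.3% of genes lay within 0.5 log2 units of 0. Of all 9680 genes, 4849 lay above 0 and 4831 below it, the background for the list counts given below. At least 2-fold higher were 38 genes (0.393% of genes tested) and at least 2-fold lower 40 genes (0.413%). At 1.5-fold the numbers were 217 higher (2.24%) and 225 lower (2.32%). The counting interval left out 0 for all 78 of the 2-fold genes, but also for 3185 of all genes (32.9%). Genes of low level made up most of the 78. Between 5 and 10 CPM 44 of 1092 genes were 2-fold apart (4.03%), between 10 and 50 CPM 30 of 4220 (0.711%) and from 50 CPM upward 4 of 4368 (0.0916%). The values just inside the limit were 1.02 (Rasgrp4) and 1.01 (Harbi1) above 0 and -1.01 (Chst15) and -1.0002 (Jazf1) below it. Just outside stood Col7a1 at 0.9989, Igf2bp3 at 0.9958, Pfkfb4 at -0.993 and BC039771 at -0.9892.

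**Figure D1:**
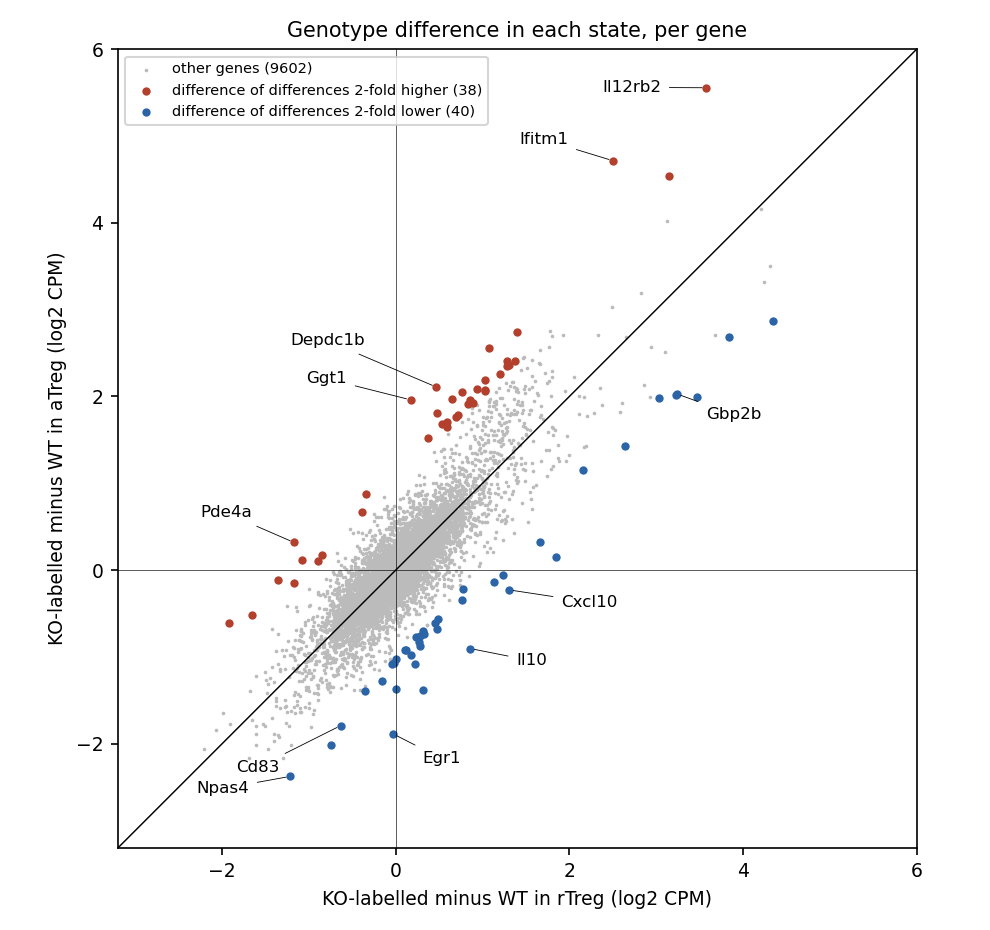
Each point is 1 gene, with the log2 CPM difference of the KO-labelled library from WT in rTreg on the x axis and in aTreg on the y axis. The 38 genes at least 2-fold above the diagonal are red, the 40 at least 2-fold below it blue, and the other 9602 genes gray.

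The genotype ratio took different forms among these genes. Of the 38 higher genes, 27 had a ratio of the same sign in both states and larger in aTreg, and 2 had one of the same sign that was larger in rTreg. The ratio was near 0 (under 0.32 log2 units) in aTreg for 6 and in rTreg for 1, Ggt1, and its sign was opposite for 2. Of the 40 lower genes, 16 had a ratio near 0 in rTreg and 5 one near 0 in aTreg. Another 9 had the same sign with the larger ratio in rTreg, 4 the same sign with the larger ratio in aTreg, and 6 opposite signs.

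Read as a state difference, the pattern lay mainly in the WT pair. The difference of aTreg from rTreg was larger between the WT libraries than between the KO-labelled ones for 66 of the 78 genes (28 higher, 38 lower), against 50.6% of all genes. Over the 38 higher genes the WT pair had a median state difference of -1.04 and the KO-labelled pair one of 0.09, and over the 40 lower genes these were 1.30 and 0.12. WT aTreg was the lowest library for 28 of the 38 higher genes and the highest for 30 of the 40 lower genes. It stood farthest from the mean of the other libraries for 48 of the 78 genes, against 28.0% of all genes, WT rTreg for 18 (22.6%), KO-labelled aTreg for 7 (27.9%) and KO-labelled rTreg for 5 (21.5%). No state dependence can be computed without that 1 library, so a property of the library itself cannot be told apart from the state or the genotype.

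**Figure D2:**
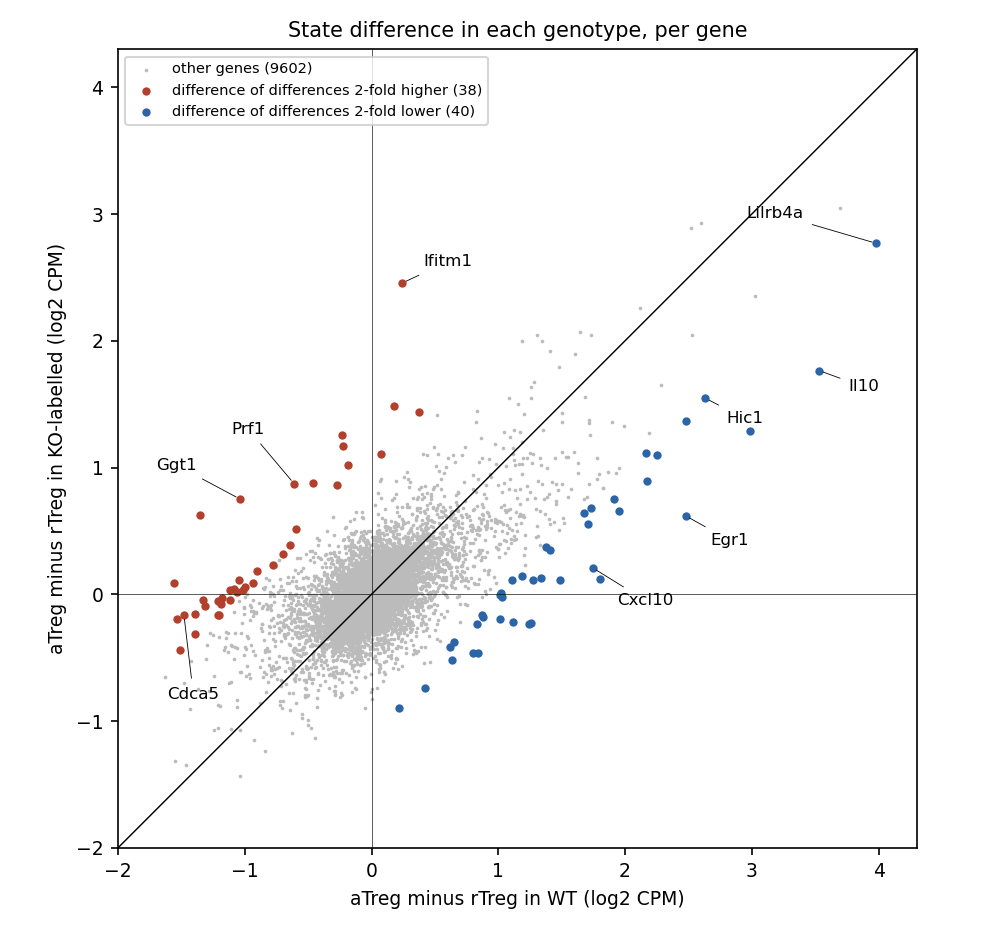
Each point is 1 gene, with the log2 CPM difference of aTreg from rTreg in WT on the x axis and in the KO-labelled pair on the y axis, colored as in the plot of genotype differences. The colored genes spread along the x axis, with a median of -1.04 for the red and 1.30 for the blue genes, and less along the y axis, with medians of 0.09 and 0.12.

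Genes of mitosis led the higher side. Of 44 listed genes of mitosis, spindle and kinetochore, 42 were measured, 11 were at least 2-fold and 28 at least 1.5-fold higher in state dependence, and none was lower. All 42 values lay above 0, from 0.08 (Ndc80) to 1.64 (Depdc1b), with a median of 0.76. WT aTreg had the lowest level of the 4 libraries for all 42, as it did for 2544 of the 9680 genes. Summed over the list, levels were 1146, 659, 2679 and 2422 CPM. The KO-labelled libraries were thus above WT in both states, and the gap was wider in aTreg, where the WT library was lower than in rTreg, while the KO-labelled pair differed little. In bulk libraries fewer dividing cells and less of these RNAs per cell cannot be told apart.

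Cyclin A2 (Ccna2) and Cdk1, the kinase that drives entry into mitosis, showed the form shared by the list. Cdk1 (chromosome 10, 69335146 to 69352938, minus strand) was at 14.1, 6.75, 28.7 and 31.1 CPM, so that its genotype ratio was 1.02 in rTreg and 2.19 in aTreg. Its state dependence was 1.16 [0.83 to 1.52]. Ccna2 (chromosome 3, 36564865 to 36572150, minus strand) was at 30.6, 11.6, 74.3 and 59.7 CPM and had a state dependence of 1.08 [0.84 to 1.34]. Annotated exons of Exosc9 on the opposite strand overlap Ccna2. For both genes WT aTreg was lowest and both KO-labelled libraries lay above both WT libraries.

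Genes of sister chromatid cohesion and separation had the same form. Cdca5 (chromosome 19, 6084983 to 6091777, plus strand) encodes sororin, which holds sister chromatids together, and was at 12.2, 4.3, 19.2 and 17.1 CPM, a state dependence of 1.31 [0.91 to 1.77]. Espl1 (chromosome 15, 102296266 to 102324357, plus strand) encodes separase, the protease that cuts cohesin at anaphase, and was at 24.2, 11.1, 46.2 and 47.3 CPM (1.15 [0.89 to 1.43]). The kinetochore motor gene Cenpe was at 30.2, 13.9, 74.5 and 72.1 CPM (1.07 [0.84 to 1.31]). In each of these 3 genes the KO-labelled pair was level within 0.17 log2 units, while WT aTreg was at least 1.11 units below WT rTreg.

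The other members at 2-fold were Depdc1b, Tpx2, Kif2c, Ska1, Spc24 and Pbk. Tpx2, a spindle assembly factor, had a state dependence of 1.05 [0.81 to 1.31], the microtubule-depolymerizing kinesin Kif2c one of 1.13 [0.71 to 1.59] and the kinetochore gene Spc24 one of 1.05 [0.67 to 1.47]. Depdc1b had 109, 35, 127 and 144 counts and Ska1, of the spindle and kinetochore, 78, 25, 175 and 163, so their intervals were wide (1.02 to 2.39 and 0.67 to 2.2). Members near 0 were Ndc80 (0.08 [-0.23 to 0.39]), Prc1 (0.21 [-0.06 to 0.49]) and the centromeric histone gene Cenpa (0.23 [0.10 to 0.36]). The 17 further members between 1.5-fold and 2-fold included Ccnb1, Plk1, Aurkb, Birc5, Mki67 and Top2a.

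Genes of DNA replication and S phase had smaller values. Of 36 listed, 35 were measured, none was 2-fold and 5 were 1.5-fold higher, none lower, with a median of 0.36 and 30 of 35 above 0. WT aTreg was the lowest library for 34 of the 35. The replication initiation gene Mcm10 (10.6, 6.36, 31.5 and 34.3 CPM) had a state dependence of 0.85 [0.49 to 1.22], cyclin E1 (Ccne1) 0.78 [0.47 to 1.11] and the transcription factor gene E2f8 0.78 [0.46 to 1.13]. Pcna, the clamp that holds DNA polymerase, was at 237, 226, 352 and 304 CPM (-0.14 [-0.22 to -0.06]), and Gins2 and Slbp were also below 0. The mitosis list therefore had the larger median on this scale, and the difference between the lists was not tested.

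Several of the 2-fold higher genes that stand on neither list are also known from cell division. Aspm, a spindle pole protein, was at 23.8, 10.4, 34.4 and 33.8 CPM (1.15 [0.87 to 1.45]). The kinetochore gene Kntc1 was at 20.1, 10.4, 41.0 and 43.7 CPM (1.03 [0.75 to 1.32]). Kif18b, a kinesin of the mitotic spindle, was at 12, 5.18, 31.3 and 27.9 CPM (1.03 [0.67 to 1.43]). In all 3 genes WT aTreg was again lowest. Mxd3, of the MAD family that pairs with MAX, had a state dependence of 1.29 [0.86 to 1.76], with Prelid1 overlapping on the opposite strand, the DNA helicase Pif1 1.11 [0.63 to 1.64] and the recombination factor gene Hrob 1.11 [0.46 to 1.83].

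**Figure D3:**
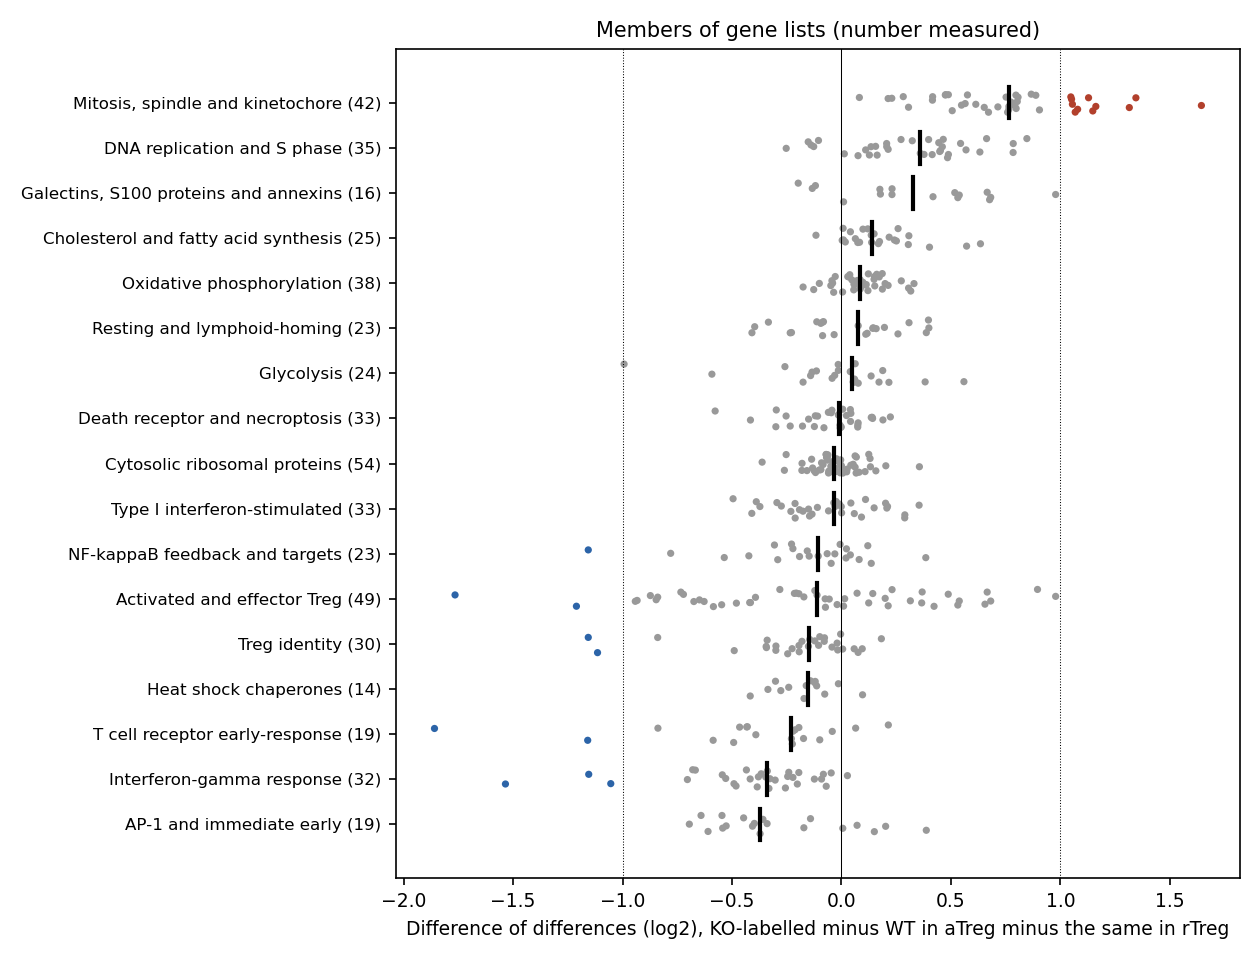
Each point is 1 measured member of a gene list (rows, number measured in brackets), at its state dependence in log2 units, with the list median as a black bar and dotted lines at 2-fold. The mitosis list has a median of 0.76 and 11 members past 2-fold, the interferon-gamma list a median of -0.34, and the ribosomal protein list one of -0.03.

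Promoters of cell division genes commonly hold the CHR element TTTGAA and CCAAT boxes, through which the DREAM complex and NF-Y act. Promoter windows of 250 bases before to 50 after a start site came from RefSeq (GRCm38.p6), which held 9846 windows for 7733 of the 9680 genes. The CHR letters stood in 12% of all windows and in 38.5% (15 of 39 windows, 25 genes matched) of those of the 2-fold higher genes. Only 5 of these 39 windows were of mitosis list genes, 4 with the letters. The other 34 windows, 11 with the letters (32.4%), were of genes outside that list, such as Ggt1, Ifitm1, Nebl, Pde4a, Stra6 and Trpm1. The letters stood in 12.8% of 39 windows of 2-fold lower genes (25 genes matched) and in 73.5% (25 of 34) of windows of the mitosis list. CCAAT stood in 37.7% of all windows, 43.6% of those of higher genes, 30.8% of lower genes and 67.6% of the mitosis list. Both strands were searched, a match is only a match of letters, and windows of 1 gene can overlap. The windows of Cdca5 (chr19:6084847-6085146, plus strand), Espl1 (chr15:102296043-102296342, plus strand) and Cdk1 (chr10:69352863-69353162, minus strand) are shown because they carry these letters near the start site, with matches to any motif searched in capitals.
Cdca5: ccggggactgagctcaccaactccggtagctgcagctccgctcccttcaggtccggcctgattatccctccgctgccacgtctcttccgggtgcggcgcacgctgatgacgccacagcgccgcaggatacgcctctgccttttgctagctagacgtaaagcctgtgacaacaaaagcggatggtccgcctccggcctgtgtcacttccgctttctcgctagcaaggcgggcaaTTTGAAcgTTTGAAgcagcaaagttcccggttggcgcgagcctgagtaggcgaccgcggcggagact
Espl1: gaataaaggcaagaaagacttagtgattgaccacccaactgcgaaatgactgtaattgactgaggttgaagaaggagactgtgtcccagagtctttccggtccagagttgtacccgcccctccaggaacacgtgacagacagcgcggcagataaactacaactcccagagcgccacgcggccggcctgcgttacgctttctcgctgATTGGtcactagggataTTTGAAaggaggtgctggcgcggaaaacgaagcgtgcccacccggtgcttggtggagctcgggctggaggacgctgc
Cdk1: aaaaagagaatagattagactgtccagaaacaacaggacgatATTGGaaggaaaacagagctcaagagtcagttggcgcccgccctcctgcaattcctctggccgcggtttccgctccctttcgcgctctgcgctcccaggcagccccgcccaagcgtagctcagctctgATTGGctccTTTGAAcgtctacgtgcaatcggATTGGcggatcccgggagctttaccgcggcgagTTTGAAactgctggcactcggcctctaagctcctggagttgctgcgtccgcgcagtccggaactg
In Cdca5 the CHR letters began 17 and 9 bases before the start site, with no CCAAT box. In Espl1 a CCAAT box, read on the opposite strand, began 44 bases and a CHR 27 bases before it. In Cdk1 CHR letters began 71 and 15 bases before it, and CCAAT boxes, on the opposite strand, 208, 80 and 48 bases before it. The E2F letters TTTCCCGC or TTTGGCGC stood in 3.22% of all windows and in none of the windows of 2-fold higher genes.

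Il12rb2, Prf1 and the IFITM genes were also among the higher genes. Il12rb2, which encodes 1 chain of the receptor for interleukin-12, had 19, 6, 210 and 346 counts, a state dependence of 1.98 [0.85 to 3.90]. Prf1 (chromosome 10, 61297833 to 61304680, plus strand), the pore-forming protein perforin of cytotoxic granules, had 65, 41, 117 and 230 counts (1.49 [0.84 to 2.21]). In both genes WT aTreg was below WT rTreg and KO-labelled aTreg above KO-labelled rTreg. Serbp1 overlaps Il12rb2 on the opposite strand, and the WT counts are few, so the size of its value is uncertain. The lists that hold them ran both ways. Of 15 measured cytotoxic granule genes, Prf1 was 2-fold higher, Serpina3f (-1.15) and Serpina3g (-1.05) were 2-fold lower, the granzyme gene Gzma was at -0.80 [-2.73 to 0.34] and Gzmb, the granzyme B gene, at -0.06. Of these 15 genes 9 lay below 0, and the median was -0.10. Of 15 measured genes of helper T cell lineages and their cytokines, Il12rb2 was 2-fold higher and Cxcr5 2-fold lower, Tbx21 (-0.97) and Bcl6 (-0.64) were 1.5-fold lower, and the median was 0.05.

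The interferon-induced membrane proteins IFITM1, IFITM2 and IFITM3 hinder the entry of enveloped viruses, and all 3 genes were 2-fold higher. Ifitm1 had 10, 12, 56 and 336 counts (2.21 [0.75 to 3.61]), Ifitm2 29, 24, 230 and 553 counts (1.40 [0.55 to 2.30]) and Ifitm3 200, 125, 313 and 437 counts (1.03 [0.64 to 1.44]). KO-labelled aTreg was the highest library for each. Unlike the mitosis genes, Ifitm1 and Ifitm2 had the larger state difference in the KO-labelled pair (2.46 and 1.17, against 0.24 and -0.23 in WT). The 3 genes are close relatives on chromosome 7, and reads may be split between them. Of the Ly6 genes in the same list, Ly6c2 (-0.47), Ly6e (-0.29) and Ly6c1 (-0.23) lay below 0.

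Ggt1 and Sema7a had their genotype difference mostly in aTreg. Ggt1 (chromosome 10, 75561604 to 75586200, plus strand), a cell-surface enzyme that cleaves glutathione, was at 6.24, 2.98, 7.03 and 11.9 CPM, with a genotype ratio of 0.17 in rTreg and 1.96 in aTreg. Its state dependence of 1.79 [1.26 to 2.39] had the interval farthest from 0 among the higher genes. Sema7a, a membrane-anchored semaphorin, was at 5.28, 3.81, 7.37 and 13.6 CPM (1.34 [0.81 to 1.90]). For both, KO-labelled aTreg was highest and WT aTreg lowest.

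Another group was lower in KO-labelled rTreg than in WT rTreg and near WT in aTreg. Pde4a, a phosphodiesterase that breaks down cyclic AMP, was at 6.57, 5.57, 2.86 and 6.98 CPM (1.49 [0.91 to 2.15]), so the rTreg library labelled KO stood alone as low. Stra6, the retinol-binding protein receptor, was at 7.15, 6.26, 3.32 and 6.82 CPM (1.21 [0.64 to 1.82]), and Nebl at 8.4, 8.85, 3.66 and 8.0 CPM (1.03 [0.51 to 1.6]). The form was the same. Camk2n1, an inhibitor of calcium/calmodulin-dependent kinase II, was at 8.49, 9.63, 2.17 and 6.28 CPM (1.31 [0.72 to 1.99]), and Slc14a1, a urea transporter, at 8.16, 6.75, 2.52 and 4.67 CPM (1.14 [0.52 to 1.82]). These 2 were lower in both KO-labelled libraries, more so in rTreg. Trpm1, a cation channel gene, differed from them in that WT rTreg stood alone as high (16.9, 6.36, 6.52 and 5.85 CPM, 1.24 [0.76 to 1.75]).

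The remaining higher genes were Arhgap33, Ankle1, Sapcd2 and Cdhr3, with state dependences between 1.07 and 1.15, Tnnt2 and Tubb6, whose genotype ratio had opposite signs in the states, and Rasgrp4 and Harbi1 at the limit. Arhgap33, a GTPase-activating protein gene, was at 13.8, 6.55, 22.6 and 22.9 CPM, with WT aTreg lowest.

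**Figure D4:**
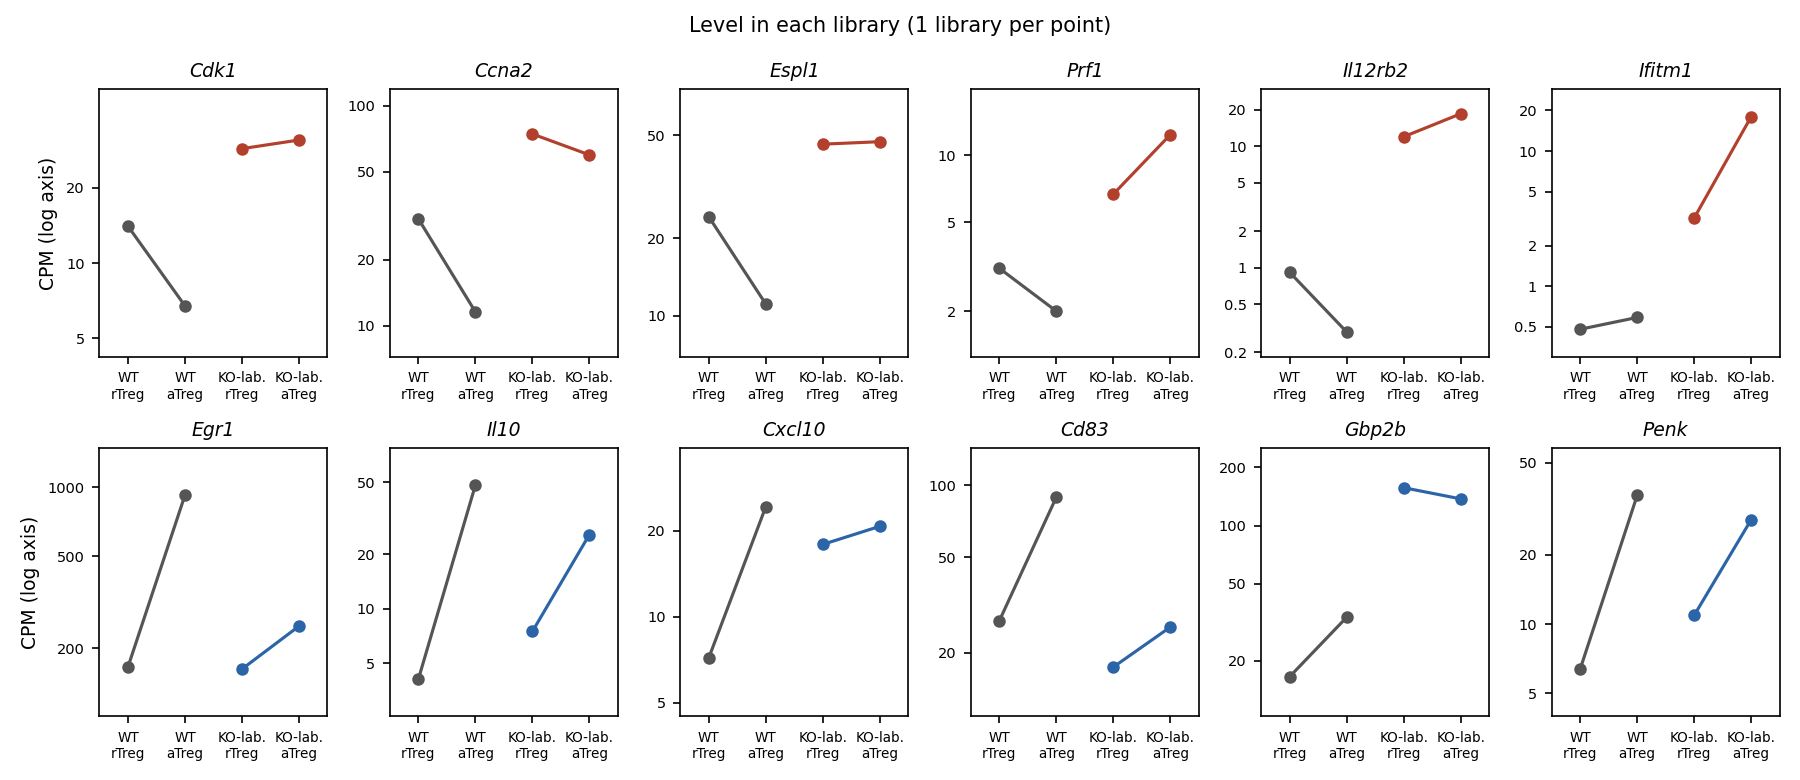
CPM on a log axis in each of the 4 libraries for 6 genes of the higher side (top row) and 6 of the lower side (bottom row), 1 point per library, with the WT pair in black. In the top row the line of Cdk1 runs from 14.1 down to 6.75 CPM in WT and from 28.7 to 31.1 CPM in the KO-labelled pair, and in the bottom row that of Egr1 runs from 165 up to 923 CPM in WT and from 162 to 249 CPM.

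On the lower side Egr1 stood out. Egr1 (chromosome 18, 34859823 to 34864984, plus strand), a transcription factor induced within minutes of T cell receptor signals, was at 165, 923, 162 and 249 CPM. WT aTreg was far above the other 3 libraries, none of which passed 249 CPM. The genotype ratio was -0.03 in rTreg and -1.89 in aTreg, a state dependence of -1.86 [-1.95 to -1.77]. It was the only gene that also passed 2-fold in the authors' variance-stabilised values (-1.77).

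Other genes of early signalling went the same way, most of them less far. Of 25 T cell receptor early-response genes, 19 were measured, 2 (Egr1 and Npas4) were 2-fold and 4 were 1.5-fold lower, none higher, with 17 of 19 values below 0 and a median of -0.23. Npas4, a transcription factor induced by calcium signals, had 147, 351, 52 and 60 counts (-1.16 [-1.80 to -0.53]). Egr3 was at 30.7, 70.9, 29.3 and 37.9 CPM (-0.84 [-1.06 to -0.62]). Irf4 (-0.43 [-0.54 to -0.32]) was nearer 0, Myc (-0.04 [-0.15 to 0.06]) did not differ from 0 by more than counting error, and Cd6 (0.21 [0.17 to 0.26]) lay above it.

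AP-1 and immediate early genes, which also respond to the handling of cells, had a median of -0.37 over 19 measured of 22. None was 2-fold, 3 were 1.5-fold lower and none higher. Fos was at 337, 724, 235 and 312 CPM (-0.69 [-0.77 to -0.62]), Fosb at 258, 539, 206 and 276 CPM (-0.64 [-0.72 to -0.56]) and Zfp36, whose protein destabilizes cytokine mRNAs, at 555, 1098, 599 and 776 CPM (-0.61 [-0.66 to -0.56]). WT aTreg was the highest library for each of the 3. Klf2, a quiescence factor, lay above 0 (0.39 [0.32 to 0.46]). The handling of the cells is not described in the labels, and its part in these values was not tested.

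Il10 and Penk had genotype ratios of opposite sign in the 2 states. Il10 (chromosome 1, 131019845 to 131024974, plus strand), the anti-inflammatory cytokine of effector Treg cells, was at 4.08, 48.2, 7.49 and 25.7 CPM. It was higher in the KO-labelled library in rTreg (0.86) and lower in aTreg (-0.90), a state dependence of -1.77 [-2.23 to -1.35]. Penk, the precursor of enkephalin peptides, was at 6.38, 36.2, 10.9 and 28.4 CPM, with ratios of 0.77 and -0.35 and a state dependence of -1.11 [-1.49 to -0.76]. In both genes aTreg was above rTreg in each genotype, and the step was larger in WT.

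Over the effector Treg list the values ran both ways. Of 51 genes, 49 were measured, with 13 at least 1.5-fold lower and 5 at least 1.5-fold higher, and the median was -0.11, or 0.04 in the deposited variance-stabilised values. The chemokine receptor gene Ccr8 was at 19.96, 53.01, 29.4 and 43.3 CPM (-0.85 [-1.08 to -0.62]) and Fgl2, a secreted immunoregulatory protein gene, at 18.1, 63.0, 28.5 and 55.3 CPM (-0.84 [-1.07 to -0.61]). Both were above WT in rTreg and near it in aTreg (ratios of -0.29 and -0.19). Tigit, an inhibitory receptor gene, was at 32.6, 112, 97.2 and 182 CPM (-0.87 [-1.03 to -0.72]), and the integrin gene Itgae at 78.6, 216, 146 and 242 CPM (-0.72 [-0.83 to -0.61]). These 2 were higher in the KO-labelled library in both states, by a smaller ratio in aTreg.

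The 5 members at least 1.5-fold higher were Anxa2, Havcr2, Lgals1, Cxcr6 and S100a4. Anxa2, a membrane-binding annexin gene, was at 94.6, 47.9, 323 and 323 CPM (0.98 [0.86 to 1.10]) and the galectin-1 gene Lgals1 at 220, 171, 574 and 718 CPM (0.68 [0.61 to 0.76]). For both, WT aTreg was lowest. Havcr2, the inhibitory receptor TIM-3, was at 1.68, 2.45, 15.4 and 41.2 CPM (0.90 [0.17 to 1.56]), with KO-labelled aTreg highest. Over 16 measured of 20 galectin, S100 and annexin genes the median was 0.32, with 4 at least 1.5-fold higher and none lower.

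Interferon-gamma response genes lay mostly below 0. Of 36 listed, 32 were measured, 3 were 2-fold and 6 were 1.5-fold lower, none higher, 31 of 32 values were below 0, and the median was -0.34. The median genotype ratio was 0.93 in rTreg and 0.54 in aTreg, so that by the median the list was higher in the KO-labelled library in both states, by less in aTreg. Cxcl10, H2-K1, Gbp9 and H2-D1 had ratios below 0 in aTreg (-0.23, -0.40, -0.05 and -0.03), and H2-K1 also in rTreg (-0.16). Cxcl10 (chromosome 5, 92346638 to 92348889, minus strand), a chemokine that binds CXCR3, was at 7.20, 24.4, 18.0 and 20.8 CPM (-1.53 [-1.90 to -1.20]), with WT rTreg alone low. Art3 on the opposite strand overlaps it. The antigen-processing genes Tap1 (-0.07 [-0.12 to -0.02]) and Psmb9 (-0.05 [-0.14 to 0.04]) were nearest 0 among the members below it, and Irf9 (0.03 [-0.07 to 0.12]) was the member above 0. Type I interferon-stimulated genes had a median of -0.04 over 33 measured of 38, with none at 1.5-fold either way.

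**Figure D5:**
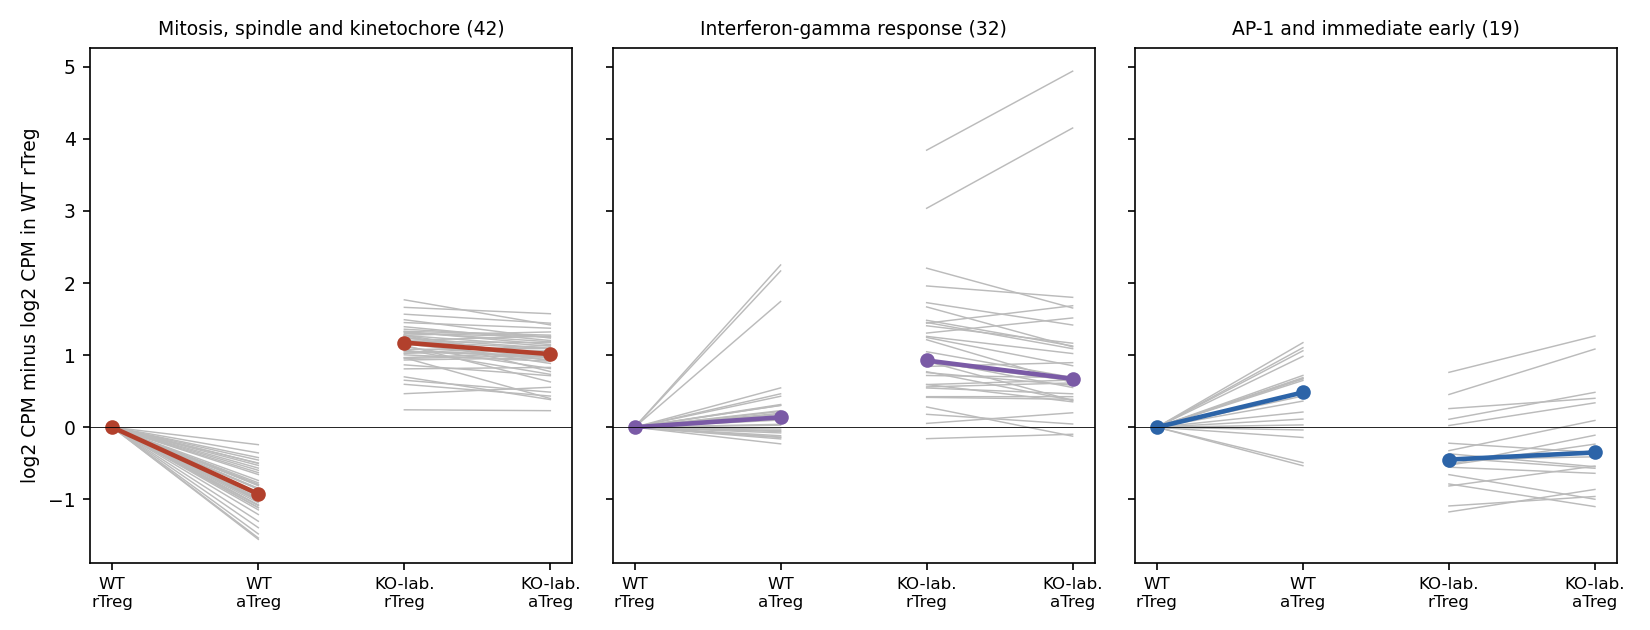
Log2 CPM relative to WT rTreg in each library for 3 lists, with a gray line per measured gene and the list median in color. For the mitosis list the median is -0.93 in WT aTreg, and for the interferon-gamma list the KO-labelled medians are above both WT medians, with 31 of 32 genes having a state dependence below 0.

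Guanylate-binding and related GTPase genes act in defence against intracellular pathogens. Gbp2b was at 16.6, 33.6, 157 and 137 CPM, with genotype ratios of 3.24 in rTreg and 2.03 in aTreg (-1.21 [-1.42 to -1.01]). Its near relative Gbp2 may share reads with it. The neighbouring chromosome 18 genes Gm4841 (32, 78, 316 and 288 counts), Gm4951 (16, 40, 307 and 278) and F830016B08Rik (27, 70, 227 and 265) had state dependences of -1.48, -1.47 and -1.20. They are relatives of each other and may share reads as well. In all 4 genes WT aTreg was above WT rTreg, while the KO-labelled libraries were both higher than WT.

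For some genes with a strong genotype difference the direction depended on the scale. Serpina3g, a protease inhibitor gene, was at 5.13, 23.4, 42.9 and 92.9 CPM, a state dependence of -1.05 [-1.42 to -0.74], but on the linear CPM scale the genotype gap was 31.7 CPM wider in aTreg. Serpina3f (1.01, 5.18, 15.8 and 34.0 CPM, -1.15 [-2.04 to -0.54]) and Lilrb4a (0.672, 12.1, 4.74 and 33.0 CPM, -1.21 [-2.34 to -0.52]) had gaps 13.96 and 16.8 CPM wider in aTreg. In the variance-stabilised values Serpina3f and Lilrb4a were also above 0. The other 75 of the 78 genes kept their sign on the linear scale. Among 1.5-fold genes, Tbx21, the type 1 helper factor T-bet (2.78, 10.9, 36.8 and 71.3 CPM, -0.97 [-1.47 to -0.56]), and Cxcr3 (25.9, 65.2, 199 and 260 CPM, -0.94 [-1.11 to -0.79]) likewise had wider CPM gaps in aTreg, by 26.4 and 21.8 CPM, and Tbx21 was at 0.03 in the variance-stabilised values. Gzma also had a wider CPM gap in aTreg, by 3.34 CPM, and was at 0.07 in the variance-stabilised values. The CPM gap of Tigit, described above by its ratios, was likewise not smaller in aTreg. Other 1.5-fold genes may do the same, and they were not counted. Counting can exchange reads between Serpina3f and Serpina3g, and between Lilrb4a and Lilrb4b.

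Matches to GAS (TTCNNNGAA), the letters that STAT dimers bind, stood in 6.94% of all promoter windows, in 36.7% (11 of 30) of those of the interferon-gamma list and in 20.5% of 39 windows of the 2-fold lower genes. The last share rests on 8 windows, among them overlapping windows of Maged2 and of Serpina3f that hold the same match. Those of Serpina3f and Serpina3g also count in the interferon-gamma list. NF-kappaB site matches stood in 10.4% of all windows, 30.0% of the interferon-gamma list and 20.5% of the lower genes, and those to the AP-1 letters TGANTCA in 4.61% of all and 10.3% of lower. The CRE letters TGACGTCA stood in 3.25% of all windows and in none of the 39 windows of lower genes, and the CArG box in 1.19% and 2.56%. These 39 windows belonged to 25 of the 40 lower genes, and the other lower genes were not searched. The windows of Cxcl10 (chr5:92348840-92349139, minus strand) and Serpina3g (chr12:104235897-104236196, plus strand) are shown as the 2 interferon-gamma list members at 2-fold whose windows held NF-kappaB matches, again with every motif match in capitals.
Cxcl10: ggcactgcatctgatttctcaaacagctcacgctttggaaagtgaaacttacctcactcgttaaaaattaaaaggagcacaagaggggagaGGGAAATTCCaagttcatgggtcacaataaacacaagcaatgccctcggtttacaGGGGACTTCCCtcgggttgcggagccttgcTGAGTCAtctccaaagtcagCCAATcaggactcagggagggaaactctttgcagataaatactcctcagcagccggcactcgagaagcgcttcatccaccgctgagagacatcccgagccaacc
Serpina3g: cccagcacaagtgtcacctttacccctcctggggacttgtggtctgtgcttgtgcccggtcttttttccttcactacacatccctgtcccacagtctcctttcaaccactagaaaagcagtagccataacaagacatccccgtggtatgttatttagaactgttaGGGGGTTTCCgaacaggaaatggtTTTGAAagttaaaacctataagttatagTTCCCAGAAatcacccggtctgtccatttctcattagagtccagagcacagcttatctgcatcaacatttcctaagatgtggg
Cxcl10 held NF-kappaB matches that began 159, 104 and 103 bases before the start site, the last 2 overlapping, an AP-1 match at 74 and a CCAAT box at 54 bases. Serpina3g held an NF-kappaB match at 85, a CHR match at 61 and a GAS match at 33 bases before it. Of the other promoter motifs searched, E2F matches stood in none of the windows of 2-fold lower genes.

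Of cytokine and surface genes, Lif, Cd83 and Cxcr5 were 2-fold lower in state dependence. Lif, a cytokine of the interleukin-6 family, was at 17.0, 44.4, 76.1 and 98.6 CPM (-1.01 [-1.22 to -0.80]), so both KO-labelled libraries were above both WT libraries. Cd83, which stabilizes surface MHC class II and costimulatory molecules, was at 27.2, 89.0, 17.4 and 25.6 CPM (-1.16 [-1.41 to -0.90]), with WT aTreg alone high. Cxcr5, the receptor that guides cells to B cell follicles, was at 18.7, 42.6, 20.3 and 22.5 CPM (-1.04 [-1.31 to -0.77]) with the same form, and Bcl9l overlaps it on the opposite strand. Bcl6, the follicular factor, was at 29.7, 41.8, 21.2 and 19.1 CPM (-0.64 [-0.91 to -0.38]), again with WT aTreg highest. Of 30 Treg identity genes, 2 (Cd83 and Penk) were 2-fold and 3 were 1.5-fold lower, none higher, with a median of -0.15 and Foxp3 at 0.08 [0.03 to 0.13].

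Further 2-fold lower genes had various functions. Abcb1a, a drug efflux pump, was at 15.5, 70.5, 34.3 and 63.9 CPM (-1.28 [-1.51 to -1.05]), with a genotype ratio of 1.14 in rTreg and -0.14 in aTreg. Cybb, the catalytic subunit of the phagocyte NADPH oxidase, was at 10.9, 41.3, 12.3 and 20.9 CPM (-1.16 [-1.49 to -0.84]). Sccpdh was at 1.68, 14, 2.12 and 5.31 CPM (-1.70 [-2.52 to -0.94]) and the transcriptional repressor gene Hic1 at 4.32, 27.3, 5.2 and 15.4 CPM (-1.09 [-1.58 to -0.61]). Cybb, Sccpdh and Hic1 differed little between genotypes in rTreg, and WT aTreg was highest. Plac8 had its larger genotype ratio in rTreg (1.67, against 0.33 in aTreg), a state dependence of -1.34 [-1.73 to -0.98].

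Genes with WT aTreg highest and a genotype ratio near 0 in rTreg further included H2-Q10 (-1.37), Mmp14, a membrane-anchored metalloprotease gene (-1.06), Ftx, a noncoding RNA gene near Xist (-1.03), Marchf3 (-1.05) and Cyp4v3 (-1.02). Ddx43, Zmat1, Matn2, Chst15, Gramd1c and the processed pseudogene Gm9493 also had a ratio near 0 in rTreg and a negative one in aTreg. Lzts2 and Rasgef1a were lower in both states and more so in aTreg. Gas2l1 and Jazf1 were higher in rTreg and near 0 in aTreg, and Arrdc4, Maged2, Gnal and Lmtk3 had opposite signs. Of 76 called genes with a position in the annotation, 18 overlap an exon on the opposite strand, whose reads cannot be separated because no label or header gives the strand setting of counting.

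The B cell gene Ighd also stood among the lower genes, with 56, 197, 173 and 200 counts (-1.69 [-2.27 to -1.19]). Ighm was at 346, 583, 737 and 694 CPM (-0.84 [-0.90 to -0.79]) and Cd74, of antigen presentation, at 20.4, 36.7, 93.4 and 98.9 CPM (-0.76 [-0.96 to -0.56]). WT rTreg was the lowest library for all 3. Over the 18 listed B cell markers, of which 10 were under 1 CPM in every library, summed levels were 435, 669.9, 849 and 785 CPM, here over all counts. Ighm made up most of each sum. Of the other markers, Ms4a1 had at most 4 counts in any library, Cd79a had 78, 65, 62 and 98, and the immunoglobulin light chain gene Igkc had 21, 31, 365 and 300 (-0.92 [-1.87 to -0.08]). Cd22 (24, 137, 36 and 56 counts) and Cd79b (184, 290, 200 and 242) were highest in WT aTreg, and Bank1 had 36, 23, 21 and 13. Of 10 MHC class II genes 4 were measured, with a median state dependence of -0.53, 3 below 0 and H2-Oa above it (0.18 [-0.28 to 0.64]). Between genotypes these genes ran both ways, in both states. H2-Ab1, below the level minimum, had 10, 12, 87 and 114 counts. H2-Ob had 1120, 1020, 306 and 228 (-0.40 [-0.69 to -0.13]). The part of these RNAs in the state dependence of other genes was not tested. Summed NK cell, neutrophil and erythroid markers were at most 12.4 CPM in any library. Each sum was higher in both KO-labelled libraries than in both WT libraries. For NK cells this came mostly from Eomes (33, 12, 123 and 112 counts), while Klrb1c had 13, 48, 5 and 26 counts. Summed myeloid markers were at 17.4, 17.6, 28.3 and 23.0 CPM, with Mpeg1 at 40, 45, 157 and 120 counts. Of stroma markers, Sparc had 11, 43, 1 and 0 counts, Col1a2 18, 33, 0 and 8 and Col3a1 2, 17, 0 and 1, each highest in WT aTreg. The other stroma markers, such as Col1a1 (24, 48, 22 and 49 counts), were not highest there. The part of these markers was likewise not tested.

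Genes of the pathway named in the study's title showed little state dependence. Of 35 death receptor and necroptosis genes 33 were measured, none was 1.5-fold either way, and the median was -0.01. Ripk3, the necroptosis kinase, was at 68.4, 68.4, 82.9 and 96.7 CPM (0.22 [0.08 to 0.37]). Casp8 had a state dependence of -0.12 [-0.21 to -0.03] and Fadd, the adaptor that recruits it, one of -0.18 [-0.56 to 0.20]. The lowest member was Casp1, the inflammasome protease, at 8.59, 15.8, 31.7 and 38.9 CPM (-0.58 [-0.90 to -0.27]). Mlkl, the necroptosis effector, was below the level minimum. Small medians with most members on 1 side of 0 were seen for heat shock chaperones (-0.15, 13 of 14 below 0), oxidative phosphorylation (0.09, 30 of 38 above 0) and cytosolic ribosomal protein genes (-0.03, 37 of 54 below 0), with none at 1.5-fold in these 3 lists. Among the chaperones Hsph1 was lowest, at -0.42 [-0.52 to -0.31]. The glycolysis list had a median of 0.05, with 13 of 24 members above 0 and 2, Pfkfb4 and Egln3, at least 1.5-fold lower. Egln3, which the list includes, encodes a prolyl hydroxylase and not a glycolytic enzyme.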

How the data were processed

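RNA was extracted with TRIzol and sequencing libraries were prepared by a SMARTer protocol, per the labels' protocols. Reads were processed with HISAT2 2.2.1 and featureCounts 2.0.1 on GRCm38, per the submitters' processing notes. The deposited count table holds whole, unnormalized read counts for 19044 gene symbols. A second deposited table holds the libraries' variance-stabilised values, which per the file headers are on a scale like log2. The annotation and strand setting of the counting are not given in the sources.

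The 9680 genes whose mean level reached 5 CPM, holding 99.31% of counts, were kept. Counts were scaled by TMM in edgeR 4.0.16 (R 4.3.3), with factors from 0.995 to 1.006, and log2 CPM used a prior count of 2. CPM is relative to the scaled total of these genes. The state dependence was computed per gene over all 4 libraries, with exact conditional 95% counting intervals of the ratio of ratios, without the prior count. A gene was called at 2-fold, with 1.5-fold as a lesser limit. Positions came from GENCODE annotation of GRCm38 and promoter windows from RefSeq. The calculation was tested on simulated counts. Alternatives were DESeq2 1.42.0 size factors, upper-quartile and total scaling, prior counts of 0.5 and 10, level minimums of 1 and 20 CPM, and the deposited variance-stabilised values.

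The gene set, lists and naming rule were chosen with earlier results of these data known. The rule took genes of the RIPK1 pathway with Foxp3, the 20 genes per direction whose interval lay farthest from 0, the 5 per direction and form of genotype difference, and per list the 2-fold members with the 3 highest and 3 lowest. The 2-fold genes outside it are named to account for each. Predicted genes, clones and immunoglobulin genes, 5 of those called, were left out of the ranking.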

Additional observations from a re-analysis of the deposited data

Results flagged for a closer look

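For 8 of the 2-fold genes the genotype difference had opposite signs in the 2 states, with at least 0.32 log2 units in each. With 1 library per combination this difference was not tested. Tnnt2, cardiac troponin T (10.5, 4.16, 8.23 and 7.73 CPM, WT rTreg and aTreg first, then KO-labelled rTreg and aTreg), and Tubb6, a beta-tubulin (4.46, 5.82, 3.37 and 9.34 CPM), were lower in the KO-labelled library in rTreg and higher in aTreg, with state dependences of 1.22 and 1.07. The other 6 were higher in rTreg and lower in aTreg. Their state dependences were -1.77 for Il10, -1.11 for Penk, -1.06 for the arrestin-like gene Arrdc4, -1.07 for Maged2, -1.16 for Gnal, a G protein alpha subunit, and -1.06 for Lmtk3. Annotated exons of other genes overlap Gnal, Lmtk3 and Penk on the opposite strand.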

How the results depend on the processing

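The counts of 2-fold genes depended on the level minimum. The 78 genes (38 higher, 40 lower) became 400 (193 and 207) at a mean of at least 1 CPM and 17 (6 and 11) at 20 CPM. In the deposited variance-stabilised values, which draw low levels together, 1 gene was 2-fold (0 higher, 1 lower), and Lilrb4a (0.24) and Serpina3f (0.11) had the opposite sign. With a prior count of 10 the total was 54 and the lower genes 26. It was 79 with DESeq2 size factors, 77 with upper-quartile scaling, 78 with library totals alone and 85 with a prior count of 0.5, and of the original 78 genes 77, 75, 77 and 78 were called again. The sign was the same for all 78 under these 4 and under a prior count of 10. Of 37 list medians none moved by 0.1 under those 5 settings, and 6 did in the variance-stabilised values, where the mitosis median was 0.34 and the interferon-gamma median -0.29. No paired analysis was possible because each combination of genotype and state has 1 library, and for the same reason no library could be left out. Depth limits genes between 5 and 10 CPM most, whose counting intervals had a median width of 1.03 log2 units, against 0.25 from 50 CPM upward.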

Other observations

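Trafficking receptor and metabolic genes differed by gene. Of 22 chemokine and trafficking receptor genes 18 were measured, with a median of 0.13 and 8 below 0. At least 1.5-fold higher were 3 of them, and 3 were at least 1.5-fold lower, Cxcr5 (-1.04) included. Gpr15, a gut-homing receptor, was at 10.9, 11.4, 13.2 and 24.6 CPM, WT rTreg and aTreg first and then KO-labelled rTreg and aTreg, a state dependence of 0.83 [0.48 to 1.19]. Ltb4r1, a leukotriene B4 receptor, was at 3.89, 9.0, 3.26 and 13.4 CPM (0.81 [0.24 to 1.42]) and Cxcr6 at 7.15, 18.3, 8.35 and 33.6 CPM (0.66 [0.27 to 1.05]). KO-labelled aTreg was highest for these 3. Of 25 measured cholesterol and fatty acid synthesis genes, 24 lay above 0, with a median of 0.14 and WT aTreg the lowest library for 20. Among glycolysis genes Pfkfb4, which sets the level of a phosphofructokinase activator, was at 6.86, 9.49, 7.26 and 4.99 CPM (-0.99 [-1.53 to -0.49]) and the lactate exporter gene Slc16a3 at 13.9, 13.3, 25.1 and 35.5 CPM (0.56 [0.26 to 0.86]).

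Tnf, the ligand upstream of RIPK1, was at 14.9, 43.8, 22.6 and 38.6 CPM (-0.78 [-1.05 to -0.52]), higher than WT in KO-labelled rTreg and near it in aTreg. Nfkbid was at 172, 312, 150 and 188 CPM (-0.54 [-0.63 to -0.44]) and the survival gene Bcl2l1 at 35.7, 39.3, 39.1 and 56.4 CPM (0.39 [0.18 to 0.59]). Over 23 measured NF-kappaB feedback and target genes the median was -0.11, with 1 gene, Cd83, 2-fold lower and none higher.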
